A study of Arabidopsis thaliana with 8 samples.

Results

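The response of shoots to nitrate was measured on 4 arrays, which are 4 of the 8 in the whole experiment. They were chosen by their titles: 2 samples of shoots in potassium nitrate (KNO3) and 2 of shoots in potassium chloride (KCl). All plants were wild-type Arabidopsis thaliana of the accession Col-0, 10 days old, grown in liquid culture under constant light. Both salts were given at 250 µM for 20 min, so KCl is the control for potassium and for handling. The samples of each treatment are numbered 1 and 2 in the titles, and the labels do not say whether they came from separate cultures or what the number marks. The p-values thus rest on sample-to-sample spread that may be technical only, and so few arrays limit the precision. Changes are given within each number, as nitrate minus KCl on the log2(signal + 16) scale, where 1 is a doubling of a high signal and low signals change by less than their true fold. The 4 matching root arrays enter the fit and serve for comparison only.

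Nitrate is a nutrient and also a signal for plants. NLP transcription factors move into or stay in the nucleus when nitrate is present and switch on genes within minutes. Among these are genes for nitrate uptake and reduction, enzymes of the oxidative pentose phosphate pathway that supply reducing power to nitrite reduction, and transcription factors of the HHO and LBD families that later damp the response. Shoots receive nitrate through the xylem and reduce much of it in leaves, where photosynthesis can also supply the electrons.

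The shoot label was checked against markers. The Rubisco activase gene RCA, the 1 of 8 listed markers of green tissue that is analysed here, had signals of 4194 and 2953 (KCl and nitrate, number 1) and 2492 and 2530 (KCl and nitrate, number 2). Of 9 listed root markers 4 are in the probe table. The summed signal of EXPA7, EXPA18 and the peroxidase gene AT3G01190 lay between 46.4 and 60.2 on the shoot arrays, against 1359 to 1594 on the root arrays. PYK10 was high on the shoot arrays as well (2220 to 3214). In whole shoots, fewer cells of a type and less RNA per cell cannot be told apart.

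The shoot arrays numbered 1 and 2 stood apart from each other. Averaged over treatments, 416 of 13647 tested probe sets differed at least 2-fold between the numbers. Isocitrate lyase helps to turn seed oil into sugar, and its gene ICL gave 3049 (KCl) and 2572 (nitrate) in number 1 but 63.2 and 111 in number 2. Signals of psbH, a plastid gene for photosystem II, were lower in number 1, at 354 and 314, than in number 2, at 1080.4 and 1115. Changes with nitrate also spread more widely in number 1, with an SD over probe sets of 0.376 against 0.244 in number 2. The ratio of 3′ to 5′ signal of the actin control probe sets was 1.88 and 1.29 in KCl and nitrate of number 1 and 1.09 and 1.19 in number 2, while GAPDH ran from 0.94 to 0.99 and ubiquitin from 1.28 to 1.47. The part of these differences in the results was not tested.

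Nitrate against KCl asked which shoot transcripts respond within 20 min. Over all tested probe sets the changes within the numbers had little in common: their Pearson correlation was 0.237 and their Spearman correlation 0.061, and 51.4% had the same sign, over 13647 probe sets that are not independent replicates. The large rises were the exception. By size alone, with no test, at least a 2-fold rise was seen in 182 probe sets in number 1 and in 59 in number 2, and 44 of these were shared, 0.322% of those tested. At least a 2-fold fall was seen in 39 and in 5, and none was shared (0%). Only 1 tested probe set changed 2-fold in opposite directions. Over all 22746 probe sets, low signals included, 46 were up (0.202%) and 4 down (0.0176%) by this measure, and none of the 4 had a mean signal in KCl above 38.3. These counts depend on the pseudocount, since at 1 in place of 16 they were 302 up and 315 down over all probe sets and 74 up and 11 down among those tested.

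**Figure D1:**
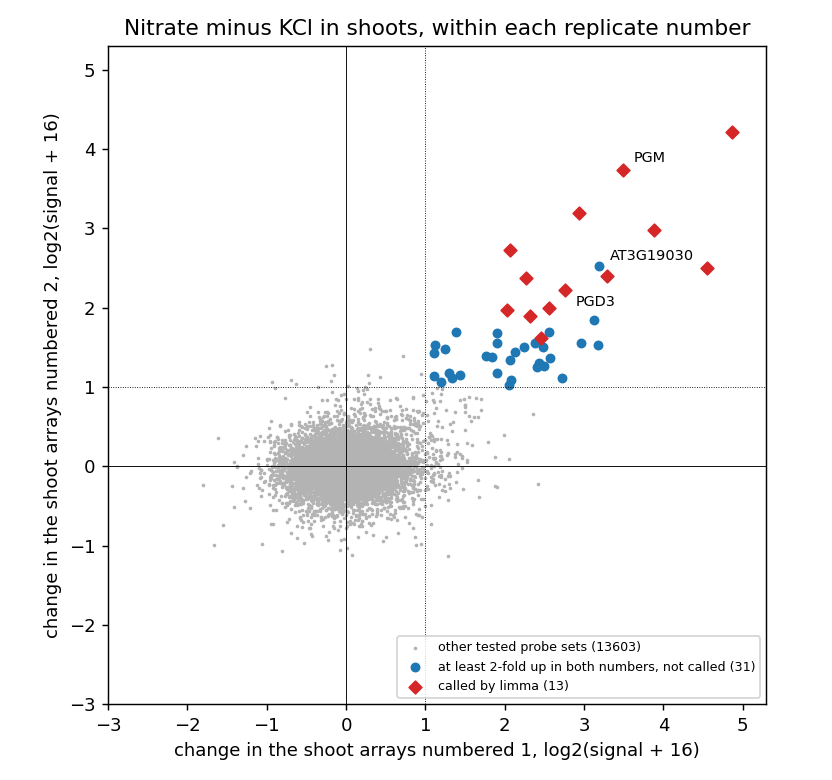
Change with nitrate in the shoot arrays numbered 1 (horizontal axis) and numbered 2 (vertical axis), log2(signal + 16), for 13647 tested probe sets. Red diamonds are the 13 probe sets called by limma, blue circles the other 31 with at least a 2-fold rise in both numbers, grey points the rest; dotted lines mark a 2-fold rise, and the lower left corner beyond 2-fold is empty.

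Fitted with limma on all 8 arrays, 13 probe sets passed the test as shoot rises (0.0953%) and 0 as falls (0%). At an unadjusted p under 0.05 the same test had 212 higher and 111 lower (0.813% lower). All 13 were among the 44 shared rises, with a change of at least 1.62 within either number, and in each of them both nitrate arrays lay above both KCl arrays. That separation alone was common: it held for 8.91% of tested probe sets upward and for 11.0% downward. With the number as a block within each organ 78 passed as rises (0.572%), among them all 13 and 43 of the 44, and 4 as falls (0.0293%). The 44 were chosen on these same arrays for large changes in both numbers, which the block test also favours. That overlap thus adds no support. With the shoot arrays alone and no block 1 passed. The count also turned on single arrays, since it was 25 without the second shoot KCl array, 8 without the first, and 7 without either root KCl array.

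Of the 44 shared rises, 16 match 1 gene in the probe table and 28 have no gene listed there. The rise was larger in number 1 for 35 of the 44, with a median of 2.29 against 1.53 in number 2. In 17 of them the mean signal in KCl was under the filter value of 33.3, so they were tested only through their nitrate or root signals, and nothing is drawn from the share of members that passed the filter. Of the 16, AT3G47980 was nearest to the 2-fold line, with a smaller change of 1.06 from very low signals. Among named probe sets with a mean signal in shoots above 33.3, the nearest above the line was AT5G09800, which encodes the U-box ubiquitin ligase PUB28, with 28.3 in KCl and 171 in nitrate in number 1 and 17.2 and 54.9 in number 2, changes of 2.08 and 1.09. Nearest below the line among these was AT1G32920, with 483 and 944 in number 1 and 285 and 657 in number 2, changes of 0.94 and 1.16.

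PGM and PGD3, of central carbon metabolism, were 2 of the 4 named genes that passed. PGM (AT1G78050), a phosphoglycerate mutase gene by its annotation, went from 24.8 in KCl to 441 in nitrate in number 1 and from 3.47 to 244 in number 2. Both nitrate arrays were far above both KCl arrays, although the KCl level itself differed between the numbers. PGM rose by 3.61 ± 0.39 (SE; limma, adjusted p = 0.015), with 3.49 and 3.74 within the numbers. Since both KCl signals were under the filter value, this size depends on the pseudocount, and it was 2.35 at a pseudocount of 64 and 4.94 at 1. It missed the threshold without the first shoot nitrate array (adjusted p = 0.0835), without the first or second root KCl array (0.06 and 0.0591), with the shoot arrays alone (0.226) and at a pseudocount of 1 (0.111).

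The oxidative pentose phosphate pathway makes NADPH from glucose 6-phosphate, and 6-phosphogluconate dehydrogenase catalyses its second oxidation. Of the 3 genes measured for it, PGD3 (AT5G41670) had signals of 126 and 940 in KCl and nitrate of number 1 and of 141 and 716 in number 2. The nitrate arrays exceeded the KCl arrays by a wide margin in both numbers, and PGD3 rose by 2.49 ± 0.19 (SE; limma, adjusted p = 0.00303; 0.0811 with the shoot arrays alone). PGD1 (AT1G64190) had 240.0 and 943 in number 1 and 222 and 522 in number 2. Its groups did not overlap either, but its change of 1.54 ± 0.26 did not pass (limma, adjusted p = 0.162), with 1.91 in number 1 and 1.18 in number 2. It passed with the number as a block within each organ (limma, adjusted p = 0.00108), but missed the threshold under 17 of 21 alternatives. Without the second shoot nitrate array its change was 1.96. PGD2 (AT3G02360) had 833 and 781 in number 1 and 634 and 626 in number 2, and its arrays overlapped. The transaldolase gene AT1G12230 of the same pathway had 237 and 207 in number 1 and 241 and 254 in number 2. Thus 1 of 4 tested genes of a list of 23 rose and none fell, against 0.0953% of all tested probe sets called as rises. At least 2-fold up in both numbers were 2 of the 4, against 0.322% of all tested, and the list's median change was 0.74, against -0.01. This and the other gene lists were chosen with earlier results of these data known, so their shares are descriptions only.

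HHO2 (AT1G68670) and HHO3 (AT1G25550) encode GARP transcription factors of the NIGT1 family, repressors known to be induced by nitrate. HHO2 had 38.0 in KCl and 276 in nitrate in number 1 and 71.0 and 199 in number 2. HHO3 ran almost in parallel, with 48.1 and 326 in number 1 and 96.3 and 252 in number 2. In both genes the KCl signal was lower in number 1 and the nitrate signal higher, so the change was larger there, at 2.44 against 1.31 for HHO2 and 2.41 against 1.25 for HHO3. Neither passed, with 1.87 ± 0.26 and 1.83 ± 0.26 (SE; limma, adjusted p = 0.0617 for both). Without the second shoot KCl array, the higher of the 2 KCl arrays, the changes were 2.215 and 2.237. Both genes passed with the number as a block within each organ (limma, adjusted p = 0.00319 for both). With the shoot arrays alone neither did (0.588 and 0.745), and each missed the threshold under 16 of 21 alternatives.

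The related HHO6 (AT1G49560) had 45.4 and 57.4 in number 1 and 45.0 and 55.2 in number 2, a small difference that pointed up in both. HHO5 (AT4G37180) changed by 0.34 in number 1 and by -0.08 in number 2. HYH, a bZIP transcription factor related to HY5 of the light response, had 22.3 and 101 in number 1 and 23.3 and 44.3 in number 2. Its KCl arrays nearly coincided and its nitrate arrays lay above them, with changes of 1.62 and 0.62, and it did not pass (limma, adjusted p = 1). NRG2, a positive regulator of nitrate signalling, had 417 and 341 in number 1 and 463 and 474 in number 2, with overlapping groups. HHO1, another member of the NIGT1 family, was below the filter, at 1.73 to 8.90 on the shoot arrays. Of 6 tested nitrate regulators in a list of 25, none passed, where 0.0953% of all tested probe sets passed as rises. At least 2-fold up in both numbers were 2 of the 6, against 0.322% of all tested. Higher with nitrate in both numbers were 4, where 23.5% of all tested probe sets were. As the list was chosen with earlier results of these data known, these shares are descriptions only.

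The steps from nitrate to ammonium were represented by genes around the reductases, which are themselves not analysed here. AT3G47980 and AT5G62720 encode HPP membrane proteins of the chloroplast envelope, a family known for nitrite import. AT3G47980 was measured by 2 probe sets, and the 1 past the filter went from 5.76 to 34.1 in number 1 and from 6.16 to 30.2 in number 2. Its signals were very low in KCl and still low in nitrate, and the 2 numbers gave nearly the same values, with a fitted change of 1.13 ± 0.23 (SE). The other probe set of this gene, below the filter, gave no more than 2.71 on any shoot array, with changes of 0.07 and 0.17. In roots it went from 1.39 to 113 in number 1 and from 1.91 to 95.6 in number 2. The 2 probe sets thus did not give the same shoot change. AT5G62720 had 83.5 and 137 in number 1 and 86.4 and 169 in number 2, again with no overlap, and changes of 0.62 and 0.86. Neither passed (limma, adjusted p = 0.3 for AT3G47980 and 0.703 for AT5G62720).

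CNX6 (AT2G43760), of the synthesis of the molybdenum cofactor that nitrate reductase needs, had 146 and 231 in number 1 and 120 and 163 in number 2. Both nitrate arrays lay above both KCl arrays. SIRB, the ferrochelatase that completes the siroheme of nitrite reductase, had 161 and 209 in number 1 and 204 and 208 in number 2. In this list of 13 genes, 4 were tested and none passed, where 0.0953% of all tested probe sets passed as rises. All 4 were higher with nitrate in both numbers, where 23.5% of all tested probe sets were, and their median change was 0.62, against -0.01 over all tested. As the list was chosen with earlier results of these data known, these values are descriptions only. AT3G47980, moreover, passed the filter only through its root signals.

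Of 16 nitrate transporter genes listed, 2 were tested and none passed, where 0.0953% of all tested probe sets passed as rises. NRT2.5, a high-affinity transporter known from nitrogen-starved plants, had 102 and 174 in number 1 and 32.6 and 48.6 in number 2. Its level followed the replicate number more than the treatment, so the groups overlapped although both changes were above 0 (0.69 and 0.41). NRT1.4 (AT2G26690), a transporter of the leaf petiole, had 362 and 454 in number 1 and 642 and 586 in number 2, with changes of opposite sign.

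**Figure D2:**
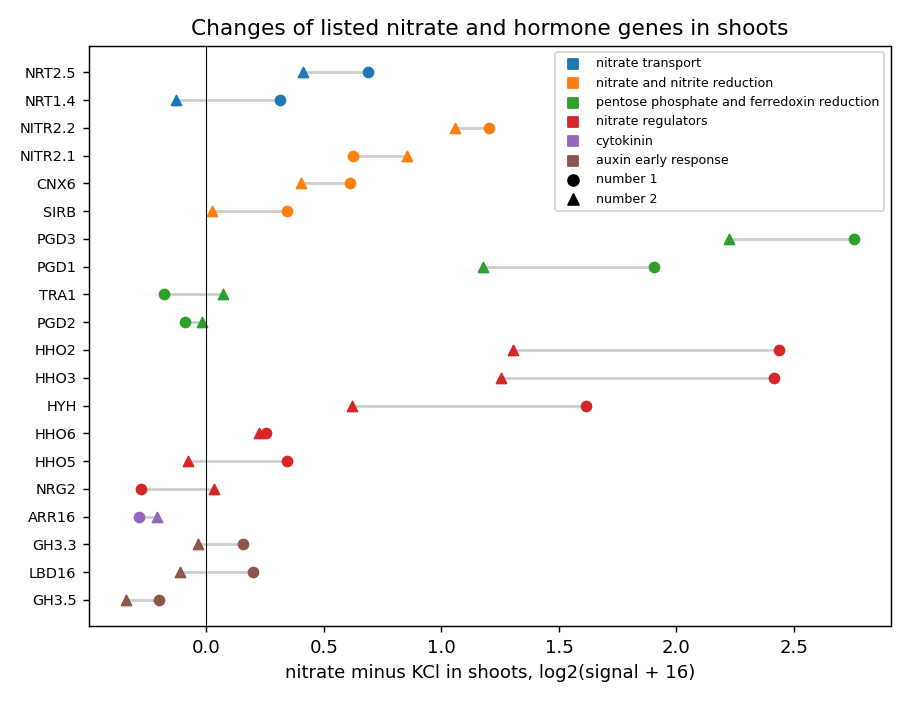
Change with nitrate in shoots, log2(signal + 16), for every tested gene of 6 lists; circles are number 1, triangles number 2, and colours the lists. PGD3, PGD1, HHO2, HHO3 and NITR2.2 (AT3G47980) lie at or beyond 1 in both numbers, while the cytokinin and auxin genes lie within 0.35 of 0.

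The few tested hormone genes that respond early to other stimuli moved little. The cytokinin response regulator gene ARR16 had 88.2 and 69.4 in number 1 and 115 and 96.8 in number 2, lower with nitrate in both, where 27.9% of tested probe sets were. It was the only gene tested of 12 in the cytokinin list, and it did not pass. ARR15 was below the filter. The auxin-conjugating enzyme genes GH3.5 (335 and 290 in number 1, 323 and 252 in number 2) and GH3.3 (117 and 132, then 111 and 108) did not pass either. Nor did LBD16, a transcription factor of lateral root initiation, which lay between 31.3 and 38.4 on all 4 arrays. All 3 tested auxin genes of a list of 10 thus missed the threshold, and their median change was 0.05. Only 0.0953% of all tested probe sets passed as rises and 0% as falls, so these non-calls say little about hormone genes. The auxin genes IAA29 and LBD29 were below the filter, with changes of -0.92 and 0.57 for IAA29 and 0.41 and 0.05 for LBD29.

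Single tested genes stood for 5 further lists, and none passed, where 0.0953% of all tested probe sets passed as rises. They were cICDH for organic acids (changes of -0.03 in number 1 and 0.03 in number 2), the sulfite reductase gene SIR for sulfate assimilation (-0.08 and 0.23), the clock gene GI (-0.19 and 0.07), STZ (ZAT10) for touch and cold (0.04 and -0.32) and ICL for the glyoxylate cycle (-0.24 and 0.68). STZ followed the replicate number rather than the treatment, with 382 and 394 in number 1 and 111 and 85.6 in number 2. No gene of the lists of ammonium assimilation and of sugar starvation was analysed here. Over all 15 lists, 34 of 170 genes could be matched to a probe set and 30 were tested.

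Several large rises fell outside the lists. AT5G54130, annotated as a calcium-binding protein of the endonuclease/exonuclease/phosphatase family, was measured by 2 probe sets. The first (248191_at) had 37.0 and 239 in number 1 and 51.2 and 332 in number 2, and the second (248190_at) had 15.8 and 117 in number 1 and 19.4 and 219 in number 2. Both told the same story, with no overlap and, unlike most rises, a larger change in number 2. The first rose by 2.32 ± 0.20 (SE; limma, adjusted p = 0.00461; 0.19 with the shoot arrays alone) and the second passed as well, with 2.07 and 2.73 within the numbers (adjusted p = 0.0329). The second missed the threshold under 11 of 21 alternatives, among them leaving out either shoot KCl array (adjusted p = 0.183 and 0.0724), the second shoot nitrate array (0.0619) or any 1 root array (0.067 to 0.11).

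AT4G36010, which encodes a thaumatin-like protein of the pathogenesis-related family, had 44.5 and 340.0 in number 1 and 50.6 and 250.3 in number 2. Its KCl arrays differed little and its nitrate arrays lay far above them. It rose by 2.28 ± 0.20 (SE; limma, adjusted p = 0.00461), and with the shoot arrays alone its adjusted p was 0.155. PGM, PGD3, AT5G54130 and AT4G36010 were the only genes with a name in the table that passed.

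AT3G19030 had the second largest agreeing change of a named gene but did not pass. Its signals were 62.4 and 697 in number 1 and 35.3 and 280 in number 2. Number 1 was higher in either treatment, the change was 3.18 and 2.53, and the fitted change was 2.86 ± 0.38 (SE; limma, adjusted p = 0.053). AT3G07350 had 9.84 and 209 in number 1 and 12.9 and 87.8 in number 2. Its fitted change of 2.48 ± 0.34 did not pass either (limma, adjusted p = 0.0535). With both KCl signals under the filter value, that size depends on the pseudocount, and it was 1.43 at 64 and 3.47 at 1. Both adjusted p fell below the threshold when the filter was set on the shoot arrays (0.0493 and 0.0494) and without the second shoot nitrate array (0.00623 for both). With the number as a block within each organ they were 9.54e-06 and 0.00138, and with the shoot arrays alone 0.485 and 0.497, so these calls depend on the fit.

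AT1G49500 had 5.53 and 178 in number 1 and 51.9 and 181 in number 2. The nitrate arrays nearly coincided and the KCl arrays did not, so the change was 3.17 in number 1 and 1.54 in number 2. It did not pass (limma, adjusted p = 0.244) and missed the threshold under 18 of 21 alternatives. AT3G16560, of the protein phosphatase 2C family, showed the pattern of AT1G49500 more weakly. It had 32.9 and 198 in number 1 and 86.8 and 263 in number 2. It did not pass either (limma, adjusted p = 0.3) and missed the threshold under 17 of 21 alternatives. WNK7, a protein kinase of the WNK family, changed by 1.11 and 1.14, with the numbers close together (limma, adjusted p = 0.215); it and AT5G13520 (1.25 and 1.47) belong to the 16 named probe sets beyond 2-fold and were singled out after their values were seen.

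**Figure D3:**
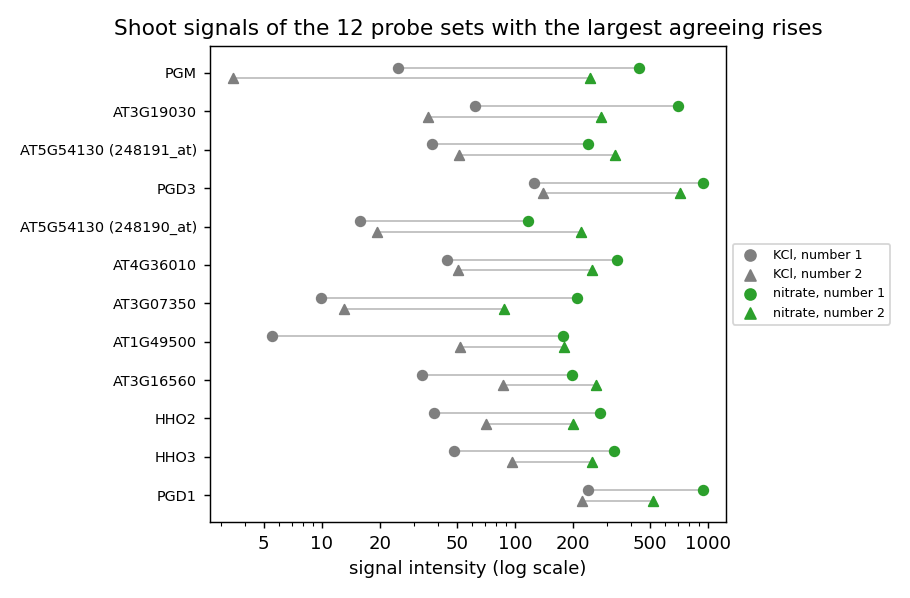
Signal intensity (log scale) on the 4 shoot arrays for the 12 named probe sets with the largest rises that agree in both numbers; grey is KCl and green nitrate, circles are number 1 and triangles number 2. In every row both green points lie to the right of both grey points, and the KCl points of PGM, AT1G49500, AT3G16560, HHO2 and HHO3 lie visibly apart.

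Probe sets that the table does not name also had large rises. Probe set 265475_at had 40.4 in KCl and 1631 in nitrate in number 1 and 50.3 and 1220 in number 2. It had the largest change of the shoot rises and was the only one called with the shoot arrays alone, and it rose by 4.54 ± 0.19 (SE; limma, adjusted p = 6.9e-05). Probe set 249325_at had 38.8 and 791 in number 1 and 69.1 and 658 in number 2, and 246996_at had 35.1 and 376 in number 1 and 47.4 and 563 in number 2. They rose by 3.43 ± 0.23 and 3.06 ± 0.24 (limma, adjusted p = 0.00157 and 0.00327). Probe set 264859_at had 8.03 and 549 in number 1 and 47.6 and 345 in number 2, so its KCl level was uneven. It rose by 3.53 ± 0.41 (limma, adjusted p = 0.0242) and missed the threshold without the first shoot nitrate array (0.164) or any 1 root array (0.085 to 0.0895).

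No named fall passed, and the changes were smaller than the rises. Among the 12 largest agreeing falls the smaller of the 2 changes ranged from 0.50 to 0.97 in size, against 1.18 to 3.49 among the 12 rises. In all 12 both nitrate arrays lay below both KCl arrays, a separation that held for 11.0% of tested probe sets. Because the 12 were chosen as the largest falls on these same arrays, that choice favours the separation, which adds no support. UF3GT (UGT79B1), which encodes a glycosyltransferase of anthocyanin synthesis, had 232 in KCl and 103 in nitrate in number 1 and 137 and 61.9 in number 2. The level was lower in number 2 and the change nearly equal, at -1.06 and -0.97 (limma, adjusted p = 1). AT4G14090, which encodes another anthocyanin glycosyltransferase, had 92.7 and 47.9 in number 1 and 104 and 68.3 in number 2, with changes of -0.77 and -0.51.

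AT3G19680 had 280.1 and 141 in number 1 and 333 and 195 in number 2, a change of -0.82 ± 0.19 (SE; limma, adjusted p = 0.595). AT5G56980 had 66.3 and 26.8 in number 1 and 43.8 and 20.1 in number 2, a change of -0.84 ± 0.21 (adjusted p = 0.703). These were the 2 of the 12 that passed with the number as a block within each organ (limma, adjusted p = 0.0163 and 0.0355), beside probe set 245276_at (60.5 and 8.12 in number 1, 78.5 and 31.5 in number 2) and AT1G61590, which was named after its value was seen. The other 8 named falls started from 43.5 to 200.5 in KCl. They were AT1G28190, TRM18, AT1G63750 (an immune receptor of the TIR-NBS-LRR class), AT5G61570, AT3G22660, AR791, the remorin gene AT5G23750 and AT2G39960, of the microsomal signal peptidase, each with an adjusted p of 1 by limma. The unnamed probe set 245084_at had 106 and 56.8 in number 1 and 125 and 70.3 in number 2 and did not pass.

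**Figure D4:**
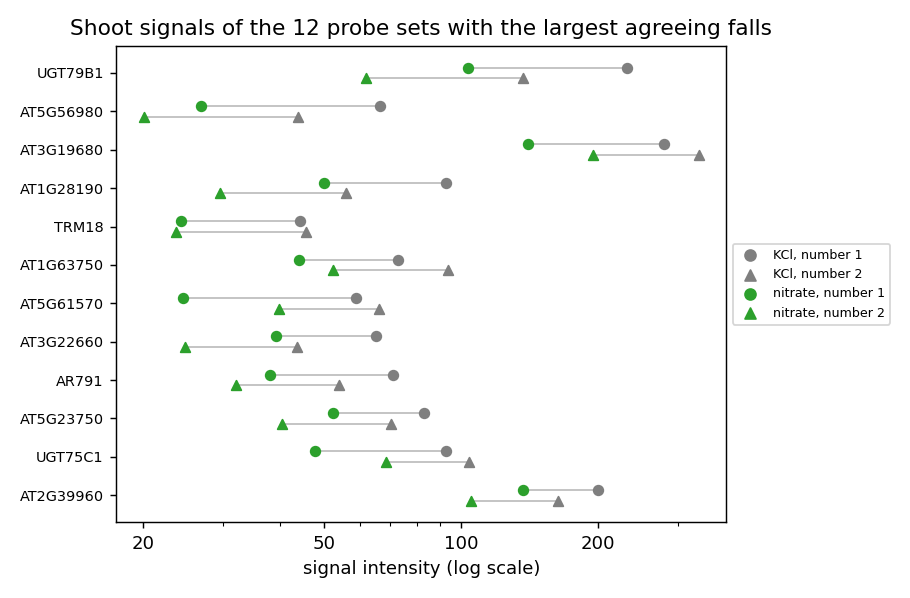
Signal intensity (log scale) on the 4 shoot arrays for the 12 named probe sets with the largest falls that agree in both numbers; grey is KCl and green nitrate, circles are number 1 and triangles number 2. Green points lie to the left of grey points in each row, UF3GT is labelled UGT79B1 and AT4G14090 UGT75C1, and the distances are shorter than those of the rises.

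Changes that went opposite ways in the numbers reached about the size of the falls. AT4G01810, which encodes a protein of the SEC23 family of vesicle coats, had 151 in KCl and 74.1 in nitrate in number 1 but 111 and 235 in number 2. AT5G38730 (-0.70 and 1.08) and AT3G09700 (-0.78 and 0.86) ran the same way. AT3G07940 (0.64 and -0.68), AT5G07860 (0.60 and -0.64) and AT1G53030 (0.59 and -0.61) ran the reverse.

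The root arrays did not choose the 44 shared shoot rises, apart from their weight in the filter on mean signal. Some of the 44, among them WNK7, AT3G47980 and AT5G13520, passed that filter only through their root signals. The shares in roots are thus descriptions only. In roots 43 of the 44 were higher with nitrate in both numbers, as were 23.1% of all tested probe sets. At least a 2-fold rise in both numbers was seen in 35 of the 44, against 1.21% of all tested, and 28 were called by limma as rises in roots, against 1.03%. The exception was AT5G13520, with -0.45 and 0.18 in roots. Its shoot signals were low, at 1.46 in KCl and 25.4 in nitrate in number 1 and 8.66 and 52.5 in number 2. The response was larger in roots for 31 of the 44 and larger in shoots for 13. The difference between the organs had an unadjusted p under 0.05 for 12 of the 44, 8 larger in roots and 4 larger in shoots. Of all tested probe sets 2.60% had one in either direction. The shoot change that chose the 44 is part of this difference, so nothing is drawn from comparing these shares. None of the 44 passed the test of that difference after adjustment, which 2 of all tested probe sets passed (0.0147%).

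AT3G19030 differed most toward shoots among the named genes. In roots it had 535 and 1144 in KCl and nitrate of number 1 and 445 and 956 in number 2, so it was higher there in KCl and changed by 1.07 and 1.08. The response in roots minus that in shoots was -1.78 ± 0.54 (SE; limma, adjusted p = 1). PGM, by contrast, had 60.5 and 1820 in number 1 and 65.5 and 1219 in number 2 in roots, a difference between organs of 0.64 ± 0.55. PGD1 had 568 and 3230 in number 1 and 485 and 2983 in number 2, and its difference of 0.99 ± 0.36 did not pass either (limma, adjusted p = 1). AT5G62720, of the nitrite import family, had 83.5 and 86.4 in KCl in shoots but 3.87 and 3.35 in roots, and reached 61.0 and 51.5 in nitrate there. Its response was 1.14 larger in roots (limma, adjusted p = 0.536). The probe set 264014_at, singled out after its values were seen, changed by 1.84 and 1.38 in shoots and by 0.16 and 0.09 in roots (limma, adjusted p = 0.453 for the difference).

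**Figure D5:**
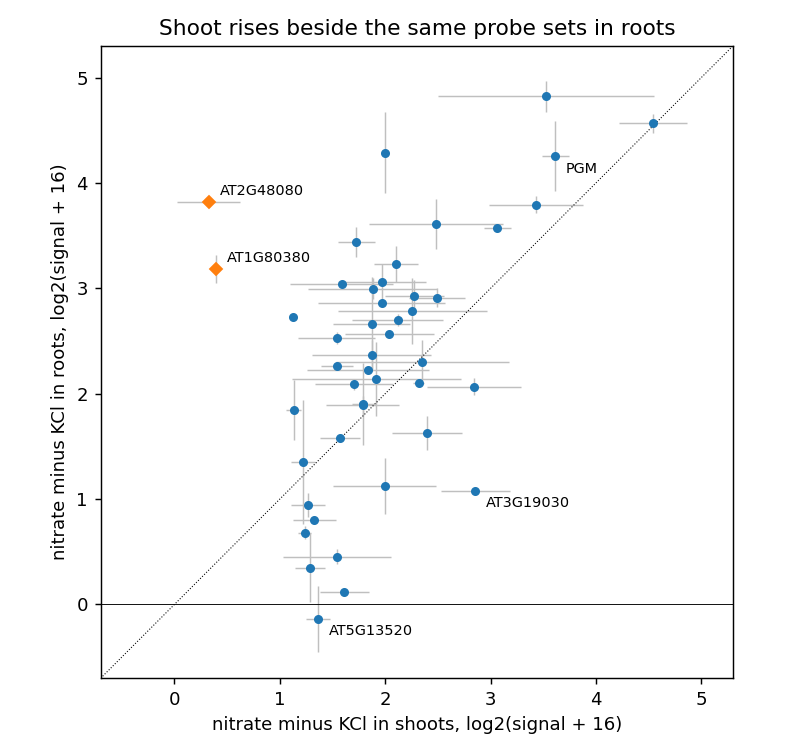
Mean change with nitrate in shoots (horizontal axis) and in roots (vertical axis), log2(signal + 16), for the 44 probe sets with at least a 2-fold rise in both shoot numbers (blue) and for the 2 genes past the test between organs (orange diamonds). Bars run from the change in one number to that in the other, the dotted line marks equal changes, and 31 of the 44 blue points lie above it.

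The 2 that passed the test between organs changed little in shoots. AT1G80380, which encodes glycerate kinase of photorespiration, had 268 and 348 in number 1 and 253 and 348 in number 2 in shoots, a change of 0.40 ± 0.19. In roots it went from 72.2 to 865 in number 1 and from 61.4 to 625 in number 2. AT2G48080, annotated as an oxygenase, had 48.9 and 50.1 in number 1 and 34.2 and 61.3 in number 2 in shoots, a change of 0.32 ± 0.19. In roots it went from 50.8 to 894 and from 43.6 to 851. Leaving out any 1 of the 8 arrays ended the call of AT1G80380 (limma, adjusted p from 0.0718 to 0.334), and leaving out any root array or the first shoot nitrate array did so for AT2G48080 (0.0519 to 0.164).

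Of the 12 named falls in shoots, 6 were lower with nitrate in both numbers in roots as well, where 36.2% of all tested probe sets were. Among them were AT3G19680 (-0.84 and -0.56) and AT5G56980 (-0.61 and -0.62). UF3GT had 11.0 to 19.5, AT4G14090 0.44 to 1.43 and AT1G63750 0.79 to 6.59 on the root arrays, too low for a change to be seen there. AT1G28190, counted among the 6, was low in roots as well, at 6.46 to 25.9. None of the 12 passed the test between organs (limma).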

How the data were processed

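Affymetrix ATH1 arrays measured RNA of 4 shoot and 4 root samples, each on its own array. The deposited values are linear signal intensities from MAS5 and GCOS, per the submitters' processing notes, whose versions and scaling target are unstated. Every array had a trimmed mean of 100.01 once the top and bottom 2% of probe sets were removed, and no further scaling was applied. Without the 64 controls there were 22746 probe sets.

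Changes were taken on the log2(signal + 16) scale from the deposited intensities, within each replicate number of the sample titles. For tests, the 13647 probe sets with a mean signal over the 8 arrays above the 40th percentile (33.3) were kept. The 4 groups were fitted together over the 8 arrays by limma 3.58.1 (lmFit, then eBayes with an intensity trend) under R 4.3.3, giving 4 residual plus 4.34 prior degrees of freedom, with two-sided tests adjusted by Benjamini-Hochberg over all 13647 and a threshold of 0.05. Plots used matplotlib 3.10.9.

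Names came from the platform's probe table, updated by gene identifier to TAIR10.1 records. It gives 1 gene for 13513 probe sets (13436 matched a record), several for 503 and none for 8730. The members and gene lists were chosen with earlier results of these data known. Named were all called probe sets of 1 gene; the 12 largest rises and 12 largest falls of 1 gene by the smaller of the 2 within-number changes, with a mean signal in shoots above 33.3; up to 4 genes per list; 3 probe sets in each orientation of opposite changes; 4 unnamed rises and 2 unnamed falls; genes past the test between organs; and ICL and psbH. Others are said to be chosen after their values were seen. The planned promoter search was not run, since no sequence was used here. Alternatives covered the pseudocount, normalization, filters, eBayes options, a replicate block, array weights per organ, the shoot arrays alone, stricter and looser folds and each array left out.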

Additional observations from a re-analysis of the deposited data

Results flagged for a closer look

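AT2G48080 and AT1G80380 stood out because their response to nitrate differed between organs by the test of the difference itself. For AT2G48080 the response in roots exceeded that in shoots by 3.49 on the log2(signal + 16) scale (limma, adjusted p = 0.00976), and the threshold was missed under 5 of 18 alternatives, where the adjusted p was up to 0.164. For AT1G80380 the excess was 2.79 (limma, adjusted p = 0.0284), and 9 of 18 alternatives, each left-out array among them, ended the call (up to 0.334). In all 4 shoot pairs of these genes nitrate was above KCl, by 0.03 to 0.62. With 2 samples in each group, no single array could be tested for standing apart from its group.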

How the results depend on the processing

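With 2 samples a group the counts of calls moved with the fit. The alternatives were followed for 30 probe sets: the 12 largest named rises, the 12 largest named falls, 4 unnamed rises and 2 unnamed falls. All 30 kept their direction under the alternatives run (21, or 20 for 8 falls that the filter at the 60th percentile removed). They were chosen for changes of the same sign in both numbers, and most alternatives leave the fitted change as it is. Their kept direction was thus largely fixed in advance and is no sign of robustness. The number of rises called in shoots, 13, became 78 with a replicate block within each organ and 36 with a block shared by both, 1 with only the shoot arrays, and 146 with the shoot arrays and a block, a fit with 1 residual degree of freedom. Falls were 0 except for 4 with the block within each organ and 27 with the shoot arrays and a block. Leaving out 1 array gave 7 to 25 rises and 0 falls; the array then alone in its group is assumed to vary like the others. The block could not be justified from the labels; between the treatments, the difference of number 2 from number 1 correlated at 0.67 over tested probe sets in shoots and 0.44 in roots, and 2 numbers are too few to decide a pairing. The count of differences between organs, 2, was 20 at a pseudocount of 64, 80 with the block within each organ, 6 with the shared block, 1 with array weights per organ and 0 to 1 without 1 array. The 46 rises and 4 falls of at least 2-fold in both numbers became 302 and 315 at a pseudocount of 1, 25 and 0 at 64, 160 and 76 at 1.5-fold and 17 and 0 at 3-fold, and falls were 0 among tested probe sets. Among tested probe sets, a choice made after seeing the data, they were 74 and 11 at a pseudocount of 1 and 25 and 0 at 64. Signals below about the filter value carry little information on this scale, and the cause of these shifts was not tested further.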

Other observations

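Because UF3GT and AT4G14090, both of anthocyanin synthesis, stood among the largest agreeing falls, the other genes of that pathway were looked up after these values were seen. Of 14 listed genes, 5 are in the probe table and 4 passed the filter, and as the list was made from 2 of its members it gets no test. DFR, which encodes dihydroflavonol reductase, had 526 in KCl and 417 in nitrate in number 1 and 266 and 210.3 in number 2, a change of -0.32 in each. UGT78D2, a flavonoid glucosyltransferase gene, had 212 and 133 in number 1 but 122 and 124 in number 2. The malonyltransferase gene AT5MAT, below the filter, had 51.3 and 25.3 in number 1 and 39.8 and 29.1 in number 2. Of the 4 tested, 3 were lower with nitrate in both numbers, where 27.9% of all tested probe sets were, and 2 of these 3 are the falls that prompted the list. None of the 4 passed by limma.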
